A study of Mus musculus with 6 samples.

Results

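The genes described here are the nuclear-encoded subunits of the mitochondrial respiratory chain and ATP synthase. They were taken from the count table as the nuclear protein-coding genes whose symbols are Ndufa, Ndufb, Ndufc, Ndufs or Ndufv with a number, Sdha to Sdhd, Cyc1, or begin with Uqcr, Cox4 to Cox8 or Atp5. This gave 84 genes of 43629 in the table, 21461 of which were nuclear and protein-coding. By complex they were 36 genes of complex I, 4 of complex II, 9 of complex III, 18 of complex IV and 17 of complex V. The symbol rule puts Ndufa4 with complex I and Cox7a2l, a supercomplex factor, with complex IV, and it leaves out Ndufab1, the acyl carrier subunit of complex I.

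RNA came from B16F10 melanoma, a mouse tumour line, grown under the skin of female C57BL/6J mice that were 8 weeks old at injection, and tumours were taken when those of the control mice reached 2000 mm3. The control pool received DMSO and control IgG, and the anti-PD-1 pool received DMSO and an antibody against PD-1, an inhibitory receptor of T cells. Another pool received AZD5363, an AKT inhibitor, with MK1775, a WEE1 inhibitor, and control IgG, and a further one the same 2 inhibitors with anti-PD-1. The last 2 pools received KS100, an inhibitor of aldehyde dehydrogenases, with control IgG or with anti-PD-1. Each of the 6 treatments was 1 library made from pooled tumours, so no comparison of 2 pools has a replicate check, and the 95% exact intervals given after ratios and shares cover counting error only. The tumours are whole tissue, in which fewer cells of a type and less RNA per cell cannot be told apart.

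Complexes I and II feed electrons from NADH and succinate to coenzyme Q, complex III passes them to cytochrome c, and complex IV hands them to oxygen. Complexes I, III and IV pump protons, and complex V uses the gradient to make ATP. Complex II is wholly nuclear-encoded, while the other complexes join nuclear subunits to a few subunits encoded in mitochondrial DNA.

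Promoters of these genes are known for sites of the transcription factors NRF1 and GABPA, an ETS factor, so the RefSeq promoter sequences (build GRCm38.p6, 250 bases before to 50 after each start) were searched on both strands, and 66 of the 84 genes were in that set. The NRF1 motif GCATGCGC was present in 10 of the 66 (15.2%), against 3.05% of the promoters of all 27025 genes. The ETS motif CCGGAAG was present in 16 (24.2%), against 9.93%. Among matches in the 250 bases before the start, Atp5l and Cox6a1 held both motifs, at positions that did not overlap. A match is a description of the letters and not a site shown to be bound. The NRF1 matches of 3 genes are shown because these genes had unlike ratios in the tumours, with the motif in capitals. They are from Cox6a1 (complex IV, chr5:115349091-115349138, minus strand), Ndufa11 (complex I, chr17:56717684-56717731, plus strand) and Ndufa6 (complex I, chr15:82354347-82354394, minus strand). All 3 lie 5′ of the gene's own GENCODE M21 model.
Cox6a1: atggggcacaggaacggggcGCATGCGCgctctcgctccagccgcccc
Ndufa11: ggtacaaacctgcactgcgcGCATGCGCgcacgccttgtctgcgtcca
Ndufa6: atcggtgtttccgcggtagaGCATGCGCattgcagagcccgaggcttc
In the AZD5363+MK1775+anti-PD-1 tumours the ratio to control was 0.219 (0.131 to 0.344) for Cox6a1 and 0.221 (0.154 to 0.308) for Ndufa6, but 1.13 (0.762 to 1.64) for Ndufa11.

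The pools held between 25521 and 1591673 counts, a 62.4-fold range, and 3 counts, the limit that a count of 0 allows, corresponded to 1.89 CPM (counts scaled to a library total of 1000000) for control but to 118 CPM for KS100+anti-PD-1. Melanocyte markers were detected in every pool, with 6 or 7 of the 7 genes. The 13 skeletal muscle markers held 104 counts in control, 814 with anti-PD-1, 0 with AZD5363+MK1775, 3183 with AZD5363+MK1775+anti-PD-1, 9 with KS100 and 17 with KS100+anti-PD-1. Counts per exon length at 8742 protein-coding genes without a count in both pools given no inhibitor would account for 0.193% of the subunit counts in the AZD5363+MK1775 pool, 0.218% with anti-PD-1 added, 1.93% with KS100 and 12.4% with KS100+anti-PD-1.

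Subunit mRNA made up a smaller share of the counts in every treated pool than in control. The 84 genes held 3.57% of all counts in the control pool (56858 counts) and 2.90% in the anti-PD-1 pool (29092 counts). The share was 2.29% with AZD5363+MK1775 (609 counts) and 1.02% with AZD5363+MK1775+anti-PD-1 (3440 counts). With KS100 it was 1.42% (636 counts), and with KS100+anti-PD-1 0.455% (116 counts). No 2 of the 6 intervals overlapped, and within each inhibitor arm the share was lower in the pool given anti-PD-1. Of the 84 genes, 79, 79, 68, 80, 73 and 51 were detected in this order of pools. At an equal depth of 25521 counts the expected numbers were 73.7, 72.2, 67.8, 65.0, 66.6 and 51, so the KS100+anti-PD-1 tumours were the lowest also at matched depth.

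**Figure D1:**
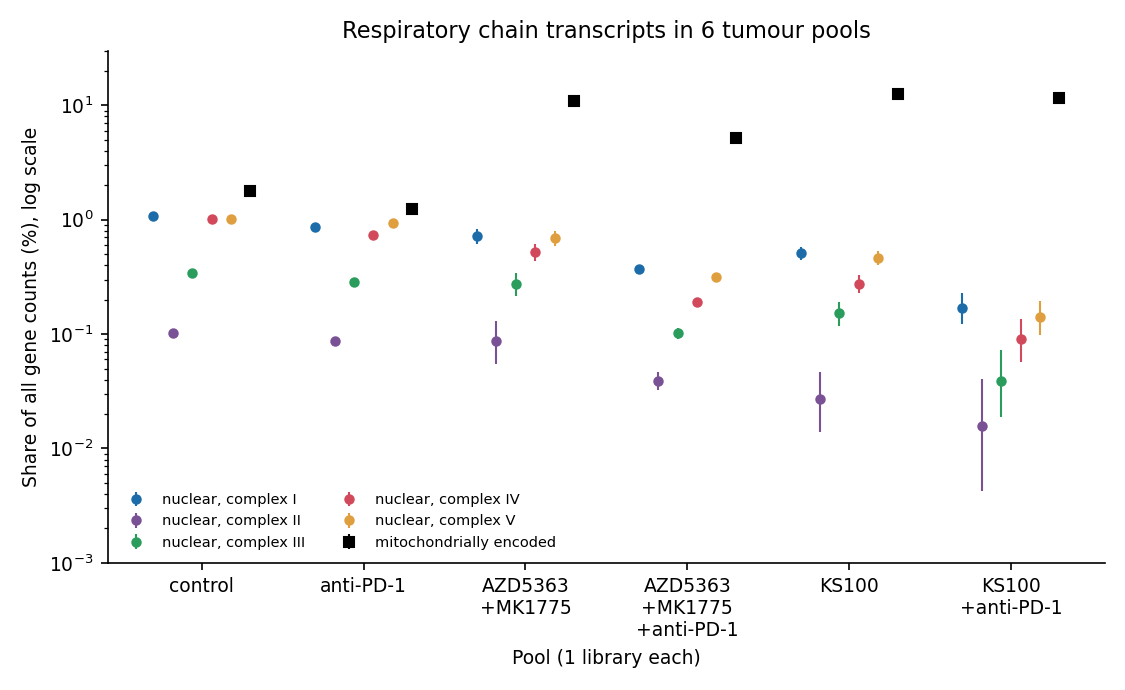
Summed counts of the subunit genes as a percent of all counts in each of the 6 pools, by complex, with exact 95% intervals that cover counting error only. Complex IV held 1.02% of counts in the control pool and 0.0901% with KS100+anti-PD-1.

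The complexes did not keep the same proportions. Complex IV, cytochrome c oxidase, made up 28.7% of the subunit counts in control (28.3 to 29.0), 25.1% with anti-PD-1 and 22.7% (19.4 to 26.2) with AZD5363+MK1775. It made up 18.7% (17.4 to 20.1) with AZD5363+MK1775+anti-PD-1, 19.2% (16.2 to 22.5) with KS100 and 19.8% (13.0 to 28.3) with both KS100 and anti-PD-1. Its share was thus below that of control in all 5 treated pools, with an interval apart from that of control in each. With KS100+anti-PD-1 the intervals almost touched (upper limit 28.25% against a lower limit of 28.29% in control), on 23 of 116 counts. Complex I made up 30.3% of the subunit counts in control and 36.4% (34.8 to 38.0) with AZD5363+MK1775+anti-PD-1, and the complex V share ran from 28.5% in control to 32.6% with KS100.

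Nuclear and mitochondrially encoded subunits went opposite ways in the inhibitor pools. The 13 mitochondrially encoded subunits held 1.77% of counts in control and 1.24% with anti-PD-1, and 10.9%, 5.19%, 12.6% and 11.5% in the 4 inhibitor pools (AZD5363+MK1775 without and with the antibody, then KS100 without and with it). There were 2.02 nuclear subunit counts per mitochondrial one in control and 2.35 with anti-PD-1. In the inhibitor pools, in the same order, there were 0.210, 0.196, 0.113 and 0.0395. This quotient does not depend on how the pools are scaled. The mitochondrial genes did not move as 1 block, since mt-Cytb held most of their counts in control (14636 of 28180) but mt-Nd1 (5101 of 17576) led with AZD5363+MK1775+anti-PD-1, and mt-Co2 had 18 counts in the whole control pool and 115 in the shallow AZD5363+MK1775 pool. Values of single mitochondrial genes are uncertain where the nuclear genome holds copies of them.

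Comparisons of 2 pools used a rule of size, applied to genes that reached 20 counts in either pool. Such a gene is called higher or lower where its ratio, scaled by the TMM factors of edgeR, differed from 1 by 2-fold or more and no part of its exact interval came within 1.5-fold. Against control, 76 of the 84 genes were tested in each pair, and the 5 comparisons share that control pool. Summed over all 84 genes the ratio to control was 0.790 (0.779 to 0.802) with anti-PD-1, 0.596 (0.549 to 0.645) with AZD5363+MK1775 and 0.460 (0.444 to 0.476) with AZD5363+MK1775+anti-PD-1. It was 0.516 (0.477 to 0.558) with KS100 and 0.181 (0.149 to 0.217) with KS100+anti-PD-1. The other nuclear protein-coding genes, summed in the same way, had ratios of 0.985, 0.796, 1.11, 0.995 and 0.902. Melanocyte markers, a gauge of the tumour cells' own transcripts, had summed ratios of 0.830, 0.428, 0.806, 0.293 and 0.167. With AZD5363+MK1775 and with KS100 they were thus lower than the subunits. Dct held 20773 of their 32341 counts in control, and the markers did not move together. With AZD5363+MK1775+anti-PD-1, Mlana went from 1390 to 248 CPM. Tyr, the only marker with a higher CPM there, went from 33.3 to 82.7 on 28 counts. CPM uses library totals, which give lower ratios in this pool than TMM does (0.285 against 0.460 for the summed subunits). Sox10 went from 235 to 210 CPM, a smaller fall than this difference in scale, so its TMM-scaled ratio was above 1. The part of these markers in the subunit ratios was not tested.

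**Figure D2:**
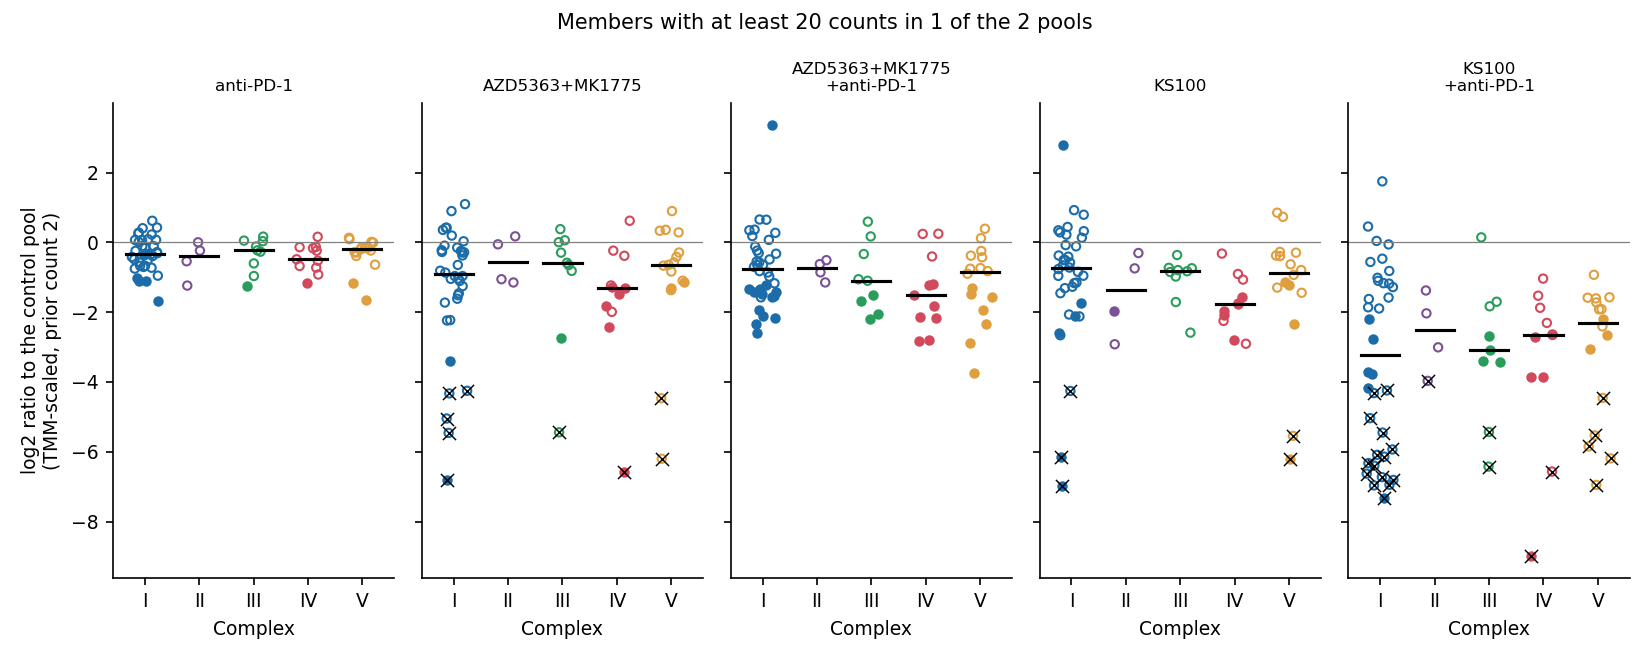
Log2 ratio to the control pool of each of the 76 tested subunit genes, by complex and treated pool, with the median of each complex as a bar. Filled points passed the size rule, open points did not and crosses had 0 counts in the treated pool; the AZD5363+MK1775+anti-PD-1 tumours have 32 genes called lower and Ndufa10 called higher.

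Cox6c, Cox5a and Atp5mpl show the pattern in single genes. Cox6c, a small structural subunit of complex IV, had 3917, 1585, 29, 74, 25 and 3 counts in the pools without and with the antibody, first under no inhibitor, then under AZD5363+MK1775, then under KS100, which is 2461, 1582, 1089, 219, 559 and 118 CPM. It was highest in control and lowest in the 2 pools given an inhibitor with the antibody. Its ratio to control was 0.625 with anti-PD-1, not past the rule, and 0.412 (0.275 to 0.592), 0.144 (0.112 to 0.181), 0.295 (0.190 to 0.435) and 0.0678 (0.0140 to 0.198) in the inhibitor pools. Cox5a, a matrix-facing subunit of the same complex, had 1183, 682, 6, 44, 6 and 2 counts. Every inhibitor pool was past the rule for Cox5a, with ratios of 0.282, 0.283, 0.234 and 0.150. Atp5mpl, a small membrane subunit of complex V, had 3286, 1898, 27, 32, 46 and 8 counts, or 2064, 1894, 1014, 94.5, 1028 and 314 CPM. The AZD5363+MK1775+anti-PD-1 tumours were lowest for Atp5mpl, at a ratio of 0.0740 (0.0505 to 0.105), 13.5-fold lower than control, while the KS100 ratio of 0.646 was not past the rule. Exons of Cox6c and Cox5a overlap the antisense genes Vps13b and Gm26631, and the strand setting of the counting is not given in the sources used here, so reads of such partners cannot be told apart. Cox6c lies at chr15:35925886-35938246, Cox5a at chr9:57521274-57532426 and Atp5mpl at chr12:111961375-111966977 (GRCm38).

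With anti-PD-1 alone, 8 of the 76 tested genes were lower than control and 0 higher, against 2.14% lower and 2.69% higher among all genes tested. The 4 with the lowest ratios had different roles. Ndufs5, an accessory subunit of complex I, had 75 counts in control and 14 with anti-PD-1, a ratio of 0.288 (0.150 to 0.514). Atp5g2, 1 of 3 genes for the rotor ring of complex V, had 83 and 16 counts and a ratio of 0.298 (0.163 to 0.513). Uqcrb, a small subunit of complex III, was at 0.418 (773 and 209 counts), and Cox8a, the smallest subunit of complex IV, at 0.445 (371 and 107 counts). Ndufa5, Ndufb5, Ndufb11 and Atp5j were the other 4, at 0.465, 0.489, 0.459 and 0.446. The catalytic subunits Atp5b (ratio 1.09) and Sdhb (0.847) were not past the rule. The median log2 ratio of the tested genes, with a prior count of 2, was -0.27, against -0.00 for all genes tested. By complex, the summed ratio was lowest for complex IV at 0.691 (0.672 to 0.711) and highest for complex V at 0.894 (0.871 to 0.917). In the same pair all 7 tested skeletal muscle markers and all 4 tested fibroblast markers were higher, and their part in these ratios was not tested.

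With AZD5363+MK1775, 11 genes were lower and 0 higher, against 1.28% lower and 1.65% higher among all genes tested. In so shallow a pool a gene with few control counts cannot be called lower: Atp5l, with 285 and 0 counts, was not called. The 1.28% includes such genes, so it is not a like background for subunits with many counts. Of the 11 lower genes, 6 belonged to complex IV (Cox5a, Cox5b, Cox6c, Cox7a2, Cox7c and Cox8a), out of 11 tested there. Ndufb5, an accessory subunit of complex I, had 439 counts in control and 0 in this pool of 26639 counts, at least 2.63-fold lower when 3 counts are taken as the limit of a count of 0. The exact interval that decides the call is wider and reaches a ratio of 0.469. Cox8a had 371 and 0 counts, at least 2.22-fold lower by the same limit (interval to 0.556), and is not past the rule when pools are scaled to nuclear protein-coding totals. Ndufb9 was 1 count against 627, a ratio of 0.0887 (0.00224 to 0.496), and Uqcrb 2 against 773, a ratio of 0.144 (0.0174 to 0.521). The summed ratio of complex IV was 0.471 (0.395 to 0.557), below that of complex I at 0.616 (0.531 to 0.710) and complex V at 0.632 (0.544 to 0.731), although the intervals come close. The median log2 ratio was -0.83, against -1.03 for all genes tested. In this shallow pool 3125 of the 7681 other nuclear protein-coding genes tested had 0 counts, against 9 of the 76 subunits, so the 2 medians cannot be set against each other. With nuclear protein-coding totals as the scale, 3 of these 11 genes kept their lower call, and Atp5k, with 27 counts against 805, was called higher at 2.37 (1.55 to 3.47).

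The AZD5363+MK1775+anti-PD-1 tumours had the most subunit genes past the rule, in a pool of 338474 counts where the other inhibitor pools held 25521 to 44748, so more genes could pass. Here 32 genes were lower and 1 higher, against 8.02% lower and 14.9% higher among all genes tested, and the median log2 ratio was -0.94 against -0.01. With library totals as the scale the summed ratio was 0.285, with 53 genes lower and 1 higher. All 5 complexes had a summed ratio below 1: 0.551 (0.520 to 0.584) for complex I, 0.611 (0.508 to 0.730) for complex II, 0.477 (0.426 to 0.532) for complex III, 0.300 (0.277 to 0.325) for complex IV and 0.501 (0.471 to 0.533) for complex V. Genes called lower were 13 of 36, 0 of 4, 4 of 9, 8 of 11 and 7 of 16 in the same order. Skeletal muscle markers were also at their highest in this pool, at 0.940% of counts, with all 11 tested genes higher; their part in the subunit ratios was not tested.

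In complex I the 7 core subunits, which carry the flavin and iron-sulphur centres or bind coenzyme Q, had a summed ratio of 0.688 (0.590 to 0.798) and the 29 accessory subunits 0.532 (0.499 to 0.566). Ndufs1, the large iron-sulphur subunit, had 826, 421, 17, 39, 8 and 3 counts over the 6 pools and was lower at 0.359 (0.253 to 0.495). Ndufv1, the NADH-binding subunit, had 126, 126, 0, 14, 3 and 0 counts and a ratio of 0.844, not past the rule. Of Ndufs1 and Ndufv1, only the first passed the rule, and the difference between them was not tested. Ndufs7, a further core subunit, had 206 counts in control and 9 with AZD5363+MK1775+anti-PD-1.

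Ndufa10, an accessory subunit of the membrane arm, was the only subunit gene called higher than control in any pool with TMM scaling and the minimum of 20 counts. Other settings also called Atp5k higher with AZD5363+MK1775 (nuclear protein-coding totals) and Cox7a1 with AZD5363+MK1775+anti-PD-1, at 4.27 (1.66 to 10.3) on 9 counts (minimum of 10 counts). It had 50 counts in control, 44 with anti-PD-1, 2 with AZD5363+MK1775, 72 with AZD5363+MK1775+anti-PD-1, 8 with KS100 and 2 with KS100+anti-PD-1, or 31.4, 43.9, 75.1, 213, 179 and 78.4 CPM. All 4 inhibitor pools were above both pools without inhibitor. The ratio to control was 10.9 (7.52 to 16.02) with AZD5363+MK1775+anti-PD-1 and 7.38 (3.02 to 15.7) with KS100, both past the rule, and 2.22 (0.262 to 8.46) and 3.54 (0.417 to 13.5) on 2 counts each in the remaining inhibitor pools. Ndufa10 lies at chr1:92439010-92473860 (GRCm38, minus strand), and no exon of another gene overlaps its exons in GENCODE M21.

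Complex II oxidises succinate and is also an enzyme of the TCA cycle. Sdha, its flavoprotein, had 467, 207, 4, 43, 6 and 2 counts, and Sdhb, its iron-sulphur subunit, 740, 406, 15, 63, 4 and 1. The membrane anchors Sdhc and Sdhd had 375, 243, 3, 22, 1 and 1 and 58, 15, 1, 4, 1 and 0 counts. None of the 4 passed the rule in the AZD5363+MK1775+anti-PD-1 tumours, where their ratios ran from 0.446 (Sdhc) to 0.700 (Sdha).

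Complex III was split. Uqcrc1 and Uqcrc2, the core proteins that face the matrix, had a summed ratio of 1.26 (0.978 to 1.61) with AZD5363+MK1775+anti-PD-1, on 76 counts. Cyc1 and Uqcrfs1, which carry the haem of cytochrome c1 and the Rieske iron-sulphur centre, had a summed ratio of 0.329 (0.242 to 0.438), on 49 counts. These intervals do not overlap. Uqcrfs1 had 964, 319, 11, 39, 12 and 1 counts and Cyc1 167, 92, 0, 10, 2 and 0, and only Uqcrfs1 passed the rule, at 0.307. Uqcr10, Uqcrb and Uqcrq were the 3 lower genes among the 5 small subunits.

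In complex IV, Cox7b was lowest in the same pool, at 0.139 (0.103 to 0.185), with 2616, 1176, 36, 48, 27 and 2 counts over the 6 pools. Cox6c followed, and Cox6a1, Cox7a2, Cox5a, Cox7c, Cox5b and Cox7a2l were also lower, at 0.219 to 0.434. The 3 tested genes of this complex that were not past the rule included Cox4i1, the largest nuclear subunit, at 1.18 (263, 144, 4, 41, 3 and 1 counts), and Cox8a, at 1.19 (371, 107, 0, 58, 1 and 0 counts). Members of 1 complex, and of similar size, therefore differed by more than their counting intervals.

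Summed ratios in complex V differed by position in the enzyme, but single genes crossed the groups. The 4 small subunits of the membrane sector that tie the synthase into dimers (Atp5j2, Atp5k, Atp5l and Atp5mpl) had a summed ratio of 0.148 (0.120 to 0.181), with 3 of 4 lower. Atp5mpl held 3286 of their 4923 counts in control. Their coding sequences have 174 to 309 bases, and position and length were not tested apart. Atp5j2 had 547 counts in control and 43 with AZD5363+MK1775+anti-PD-1, while Atp5d of the catalytic head had 301 and 10. Atp5k was at 0.132 (0.0719 to 0.223), with 805, 519, 27, 14, 29 and 3 counts, and Atp5l at 0.187 (0.0743 to 0.389). The stalk was at 0.501 (0.440 to 0.568) with 3 of 4 lower, the catalytic head at 0.678 (0.600 to 0.764) with 1 of 5 lower, and the rotor ring genes at 0.791 (0.713 to 0.875) with 0 of 3 lower. The catalytic subunits Atp5a1 and Atp5b had ratios of 0.842 (1326, 654, 16, 147, 15 and 5 counts) and 0.564 (957, 678, 8, 71, 4 and 2 counts), and Atp5c1, the rotating shaft, 1.08 (224, 132, 3, 32, 4 and 0 counts); none passed the rule. The order of these groups was not the same in the other inhibitor pools: the membrane sector was at 0.745 with AZD5363+MK1775 and 0.787 with KS100, above the rotor ring at 0.404 and 0.439.

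The AZD5363+MK1775+anti-PD-1 ratios followed the length of the coding sequence. Subunit genes with under 400 coding bases had a summed ratio of 0.331 (0.314 to 0.348) and 21 of 34 lower. Those of 400 to 800 bases had 0.613 (0.578 to 0.650) and 8 of 27 lower, and those over 800 bases 0.724 (0.670 to 0.782), with 3 of 15 lower and 1 higher. Across the 76 genes Pearson's r between log2 ratio and log2 coding length was 0.393 and Spearman's rho 0.391, as a description over genes that share 2 libraries. The other values of r given here also used log2 length. The other nuclear protein-coding genes moved the same way with length, at 0.598, 0.818 and 1.31 in the same classes, with 27.1%, 13.3% and 5.03% lower. In each class the subunit genes stood below the other genes. With exon length in place of coding length, r was 0.189 and rho 0.195. For coding length r was 0.164 with anti-PD-1, -0.031 with AZD5363+MK1775, -0.111 with KS100 and 0.185 with KS100+anti-PD-1. In that last pool 35.3%, 18.5% and 6.67% of the tested subunit genes were lower in the 3 classes, and the other genes had summed ratios of 0.426, 0.584 and 1.11. Short genes outside the subunits thus had lower ratios than long ones in both pools given an inhibitor with the antibody. A smaller difference was present with anti-PD-1 alone (0.922, 0.943 and 1.01) and with KS100 alone (0.885, 0.878 and 1.06). With AZD5363+MK1775 the classes were at 0.804, 0.768 and 0.804. Among these other genes the share called lower fell from the shortest to the longest class in each of these pools too. For the subunit genes it did not with KS100, at 23.5%, 14.8% and 26.7%. In the shallow pools a gene with few control counts cannot be called lower, and the part of control counts in these shares was not tested. The difference in r between pools was not tested.

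**Figure D3:**
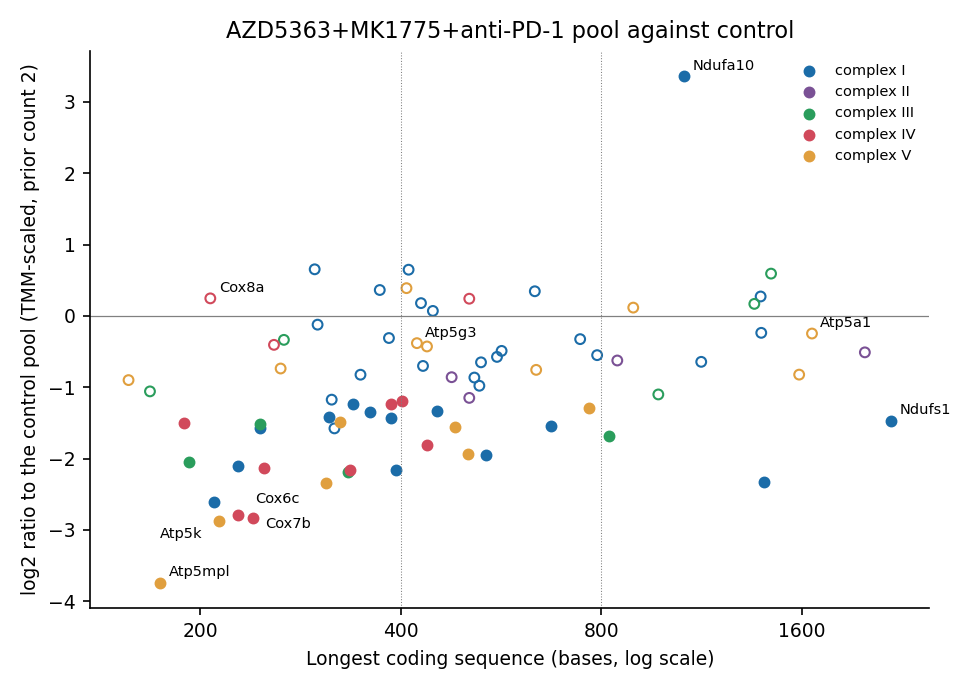
Log2 ratio of the AZD5363+MK1775+anti-PD-1 tumours to control for the 76 tested subunit genes, against the length of the longest coding sequence on a log axis, coloured by complex, with filled points past the size rule and dotted lines at 400 and 800 bases. Atp5mpl, Atp5k, Cox7b and Cox6c lie lowest among the short genes, and Ndufa10 stands apart at the top.

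Set against the anti-PD-1 pool in place of control, the AZD5363+MK1775+anti-PD-1 tumours had a summed ratio of 0.582 (0.561 to 0.603). Here 24 of 73 tested genes were lower and 2 higher, against 8.11% lower and 14.0% higher among all genes tested. Atp5mpl (0.0829), Atp5k (0.133), Ndufv3 (0.184) and Cox7b (0.201) had the lowest ratios. With library totals as the scale the summed ratio was 0.350, with 42 genes lower and 1 higher. Ndufa10 was higher at 8.05 (5.46 to 12.0) and Cox8a at 2.67 (1.90 to 3.70), though Cox8a missed the rule with pools scaled to library totals, at 1.605 (1.15 to 2.23). Set against the AZD5363+MK1775 pool, the summed ratio was 0.772 (0.708 to 0.843), with 8 of 53 tested genes lower and 1 higher, against 3.72% lower and 11.1% higher among all genes tested. Atp5k (14 counts against 27 in a pool of a far smaller total) was at 0.0709 (0.0343 to 0.140), Atp5mpl at 0.162, and Uqcr10 and Cox7b both at 0.182. Cox8a was the higher one, at least 2.64-fold, with 58 counts against 0, but missed the rule with library totals as the scale. With that scale the summed ratio was 0.445, with 15 genes lower and 0 higher, and with a minimum of 50 counts 1 was lower and 1 higher. The median log2 ratio in this pair was 0.12, and that of all genes tested 1.10. A gene with few counts could reach the minimum through the deeper pool alone, which held 338474 counts against 26639. Such a gene enters more easily with a high ratio than with a low one. These medians therefore cannot be set against each other. Nor are the 3.72% and 11.1% a like background for subunits with many counts.

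With KS100, 16 genes were lower and 1 higher (Ndufa10), against 1.86% lower and 4.5% higher among all genes tested. The 1.86% includes genes with too few control counts to be called lower in this shallow pool, as Atp5g1 was with 179 and 0 counts. It is therefore not a like background for subunits with many counts. The median log2 ratio was -0.92 and that of all genes tested -0.49, with the same limit of depth. Atp5l, with 285 and 0 counts, was at least 2.06-fold lower against 3 counts (interval to 0.601), and Ndufa9, an accessory subunit near the coenzyme Q site, with 275 and 0 counts, at least 1.99-fold lower (interval to 0.623). Ndufa9 had 275, 111, 1, 23, 0 and 0 counts over the 6 pools. Cox6a1 followed at 0.140 (0.0169 to 0.507), on 2 counts. Sdhb was lower at 0.249 (0.0678 to 0.641) and Atp5b at 0.193 (0.0524 to 0.495), each on 4 counts. Summed by complex, complexes II and IV were lowest, at 0.338 (0.174 to 0.591) and 0.345 (0.287 to 0.413), and complexes I, III and V stood at 0.608, 0.571 and 0.590. In complex IV, 6 of 11 tested genes were lower. With library totals as the scale, 26 genes were lower and 1 higher.

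With KS100+anti-PD-1, 18 genes were lower than control and 0 higher, against 2.86% lower and 4.59% higher among all genes tested. Here even Ndufb5, with 439 and 0 counts, was not called lower. The 2.86% includes genes that could not be called lower at this depth, so it is not a like background for subunits with many counts. Cox7a2, a subunit of complex IV, had 2013, 931, 13, 60, 13 and 0 counts over the 6 pools and was at least 7.58-fold lower here against 3 counts, with an interval to 0.162. Ndufb9 (627 and 0 counts) was at least 2.36-fold lower, with an interval to 0.522. Ndufc1, with 1679 counts in control and 1 here, had a ratio of 0.0527 (0.00133 to 0.294), and Cox7b one of 0.0677 (0.00819 to 0.245) on 2 counts. The summed ratios ran from 0.125 (0.0792 to 0.188) for complex IV to 0.221 (0.160 to 0.298) for complex I, and their intervals overlapped. The median log2 ratio was -2.67, and -2.48 for all genes tested. In this pool of 25521 counts, 25 of the 76 subunits and 3724 of the 7682 other nuclear protein-coding genes tested were at 0. These 2 medians therefore cannot be set against each other. With library totals as the scale, 31 genes were lower. Against the KS100 pool the summed ratio was 0.350 (0.285 to 0.427). In that pair 9 genes had enough counts and 4 were lower and 0 higher, against 34.0% lower and 4.31% higher among all genes tested, so the subunits' share was near that of all genes. They were Ndufc1 (0.0685), Cox7b (0.142), Atp5k (0.199) and Atp5g3 (0.259). Atp5k and Atp5g3 missed the rule under 2 other scalings.

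Complex IV has tissue isoforms, and these differed between the pools. Cox6a2, the heart and muscle form of Cox6a, made up 0.302% of Cox6a1 and Cox6a2 counts in control (2 of 662), 1.02% with anti-PD-1 (4 of 392) and 24.0% (9.36 to 45.1) with AZD5363+MK1775+anti-PD-1 (6 of 25). Cox7a1, the heart and muscle form of Cox7a, made up 0.789% of Cox7a1 and Cox7a2 counts in control (16 of 2029), 1.17% with anti-PD-1 (11 of 942) and 13.0% (6.14 to 23.3) with AZD5363+MK1775+anti-PD-1 (9 of 69). Both muscle isoforms thus had their intervals above control in the pool where skeletal muscle markers were highest; the part of muscle tissue in the result was not tested. With KS100, 2 of 15 Cox7a counts were Cox7a1 (13.3%, 1.66 to 40.5), an interval also above that of control, in a pool with 9 skeletal muscle marker counts. In the AZD5363+MK1775 pool neither isoform had a count, and 0 of 13 Cox7a counts allows up to 24.7%. Cox8b, a further muscle form, had 2 counts, both with AZD5363+MK1775+anti-PD-1, and Cox7b2 had 2, both with KS100. Cox4i2, Cox6b2 and Cox8c, forms known from lung and testis, were at 0 in all 6 pools. Together Cox6a2, Cox7a1 and Cox8b had 18 counts in control and 17 with AZD5363+MK1775+anti-PD-1, a ratio of 7.17 (3.47 to 14.8), while the other complex IV genes were at 0.293. Among the rotor ring genes of complex V, Atp5g3 held 93.4% of counts in control and 90.6% (87.4 to 93.3) with AZD5363+MK1775+anti-PD-1.

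**Figure D4:**
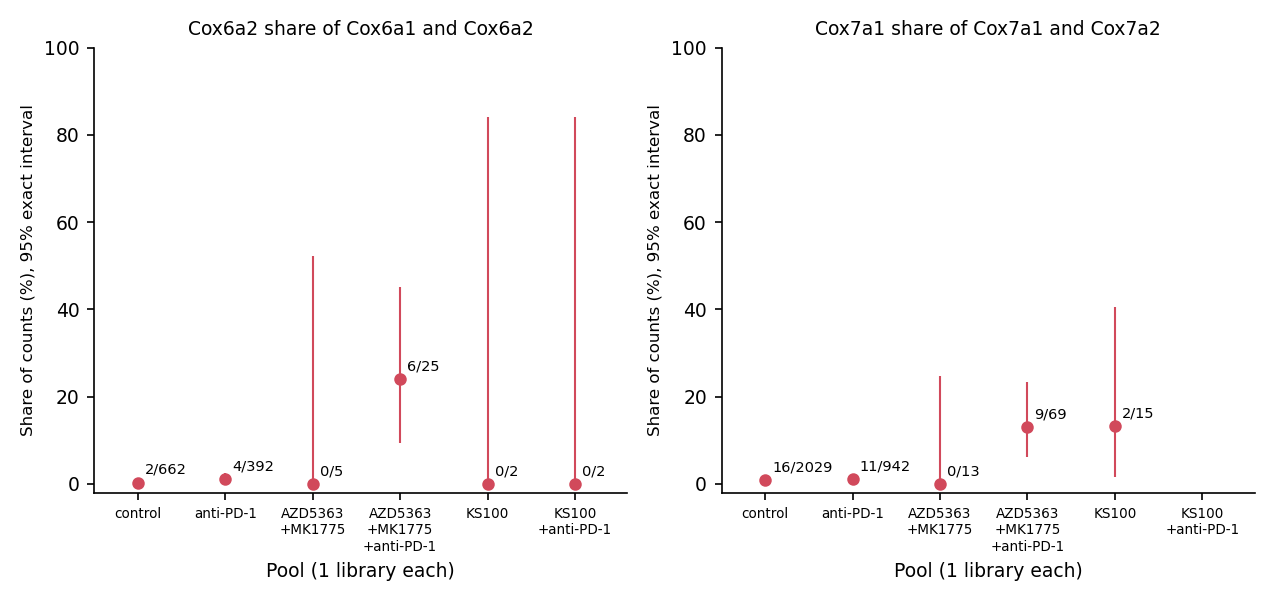
Share of the muscle isoforms Cox6a2 and Cox7a1 in the counts of their gene pairs, by pool, with exact 95% intervals that cover counting error only. Both shares were above control with AZD5363+MK1775+anti-PD-1, as was the Cox7a1 share with KS100, and the small totals of the other inhibitor pools leave wide intervals.

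Other genes of mitochondrial energy metabolism did not all follow the subunits. The 18 TCA cycle genes, which supply NADH and succinate, had summed ratios to control of 1.04 with anti-PD-1, 0.609 with AZD5363+MK1775, 0.545 with AZD5363+MK1775+anti-PD-1, 0.401 with KS100 and 0.202 with KS100+anti-PD-1. None was past the rule in the first 2 pairs, and 4, 4 and 3 of 18 were lower in the last 3, led in counts by Idh2, the mitochondrial NADP-dependent isocitrate dehydrogenase (2289, 1685, 20, 47, 19 and 5 counts). The 47 assembly factors had summed ratios of 0.735, 0.629, 0.760, 0.817 and 0.614, nearer 1 than the subunits in each inhibitor pool except AZD5363+MK1775, where the intervals overlapped. Among them Cox17, the copper chaperone of complex IV, was lower at 0.133 (0.0273 to 0.388) with AZD5363+MK1775 and 0.157 (0.102 to 0.231) with anti-PD-1 added. Ndufab1, the acyl carrier subunit outside the symbol rule, was lower with anti-PD-1, at 0.442 (0.361 to 0.539). It was not past the rule in the inhibitor pools, at 0.612, 0.853 (0.626 to 1.14), 0.711 and 1.56 (0.669 to 3.10) in the order used above. Of 10 tested regulators of mitochondrial biogenesis, Ppargc1a, the coactivator PGC-1 alpha, was higher with AZD5363+MK1775+anti-PD-1 at 5.14 (4.004 to 6.58), with 164, 63, 2, 111, 7 and 0 counts. Its relative Ppargc1b was higher there too, at 5.06 (2.63 to 9.54), and lower with anti-PD-1 alone, at 0.172 (0.0333 to 0.558). Nrf1, whose motif is shown above, was not past the rule in that pool and was higher with KS100, at 5.77 (2.66 to 11.2), on 10 counts. Ppargc1a and the summed subunits thus had ratios on opposite sides of 1 in the AZD5363+MK1775+anti-PD-1 tumours. This is also the pool where skeletal muscle markers were highest, at 0.940% of counts, and their part in the Ppargc1a ratio was not tested.

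A model that adds an inhibitor effect to an antibody effect, with pools of another treatment standing in for replicates and 2 residual degrees of freedom, was fitted to all 6 libraries with edgeR's quasi-likelihood test, over 4912 genes including 72 subunits. At a Benjamini-Hochberg adjusted p under 0.05, 0 subunits changed with anti-PD-1, against 0.102% higher and 0.0407% lower among all genes fitted, and 3 had an unadjusted p under 0.05. DESeq2 also called 0. With AZD5363+MK1775, 0 changed by edgeR, against 1.28% higher and 0.0611% lower, with 6 at an unadjusted p under 0.05, and DESeq2 called 0. With KS100, 1 fell, against 7.21% higher and 0.489% lower, with 19 at an unadjusted p under 0.05. The call was lost when the control, the anti-PD-1, the KS100 or the KS100+anti-PD-1 library was left out. The median log2 change of the 72 subunits was -0.41 with anti-PD-1, -0.66 with AZD5363+MK1775 and -1.39 with KS100, against 0.08, -0.08 and -0.47 over all genes fitted. With KS100 the medians by complex ran from -1.16 for complex I (34 genes fitted) to -2.11 for complex IV (11) and -2.32 for complex II (3). The 3 genes of complex II, Sdha, Sdhb and Sdhc, had 6, 4 and 1 counts with KS100 and 2, 1 and 1 with KS100+anti-PD-1. Ndufa10 had the largest positive subunit change with AZD5363+MK1775, 2.52 ± 0.88 (SE), and 2.39 ± 0.97 with KS100, with edgeR adjusted p of 0.155 and 0.120, so neither passed.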

How the data were processed

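RNA was extracted from 1 pool of tumours per treatment, according to the series' design text. The QuantSeq 3′ kit, which captures fragments near the 3′ ends of transcripts, gave the libraries, per the labels' protocols. The authors deposited 1 table of whole-number read counts per gene. The submitters' processing notes name bcl2fastq, HISAT2 2.1.0, HTSeq and the build GRCm38. Annotation release, strand setting and use of multiply mapped reads: not given in the sources used here. Multiply mapped reads bear on the values, since 7 processed pseudogenes matched the symbol rule; they were left out and held 366 counts in all. Of its 43721 rows, 92 named spike-ins and were all at 0. Symbols, gene types, coordinates and coding lengths came from GENCODE M21 (42462 genes matched).

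Pools were scaled with TMM in edgeR 4.0.16 (R 4.3.3), and log2 ratios used a prior count of 2. The 8 comparisons of 2 pools have no p-value; ratios carry 95% exact conditional (Clopper-Pearson) intervals from scipy 1.17.1, and a ratio to 0 counts is a bound against 3 counts in that pool. The additive model used filterByExpr and glmQLFTest. The counts use no molecular identifiers. Named genes were the 4 past the rule in each direction per pair with the ratio farthest from 1, and fixed sets of catalytic subunits, isoform pairs and the genes Cox6c, Cox5a and Atp5mpl. The members and gene lists were chosen with earlier results of these data known, and the subgroups within complexes, the length classes and the promoter motifs after the values were seen. Genes named beyond the rule were chosen after their values were seen. The scripts were tested on simulated data. Alternatives were other scalings (library totals, DESeq2 1.42.0 size factors, nuclear protein-coding totals), minimum counts of 10 and 50, no filter on low counts, the DESeq2 Wald test, leaving out each pool, and, added after seeing the data, subtraction of the expected background. Values of 1 member are not reported here; it stays in the sums, counts and medians.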

Additional observations from a re-analysis of the deposited data

How the results depend on the processing

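The ratio summed over all 84 genes stayed below 1 in all 8 comparisons of 2 pools under the alternatives run; sums by complex or subgroup were not rerun. With library totals as the scale, it was 0.813 (anti-PD-1 against control), 0.285 (AZD5363+MK1775+anti-PD-1 against control), 0.398 (KS100), 0.127 (KS100+anti-PD-1), 0.445 (AZD5363+MK1775+anti-PD-1 against AZD5363+MK1775) and 0.350 (against anti-PD-1). With DESeq2 size factors it was 0.803 for anti-PD-1, 0.439 for AZD5363+MK1775+anti-PD-1 against control and 0.547 against anti-PD-1. With nuclear protein-coding totals it was 0.808 for anti-PD-1, 0.756 for AZD5363+MK1775, 0.424 for AZD5363+MK1775+anti-PD-1 against control, 0.561 against AZD5363+MK1775 and 0.525 against anti-PD-1. Subtracting the expected background, an alternative chosen after seeing the data, left this ratio within its interval in the 7 comparisons that involve an inhibitor pool.

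Counts of genes past the rule changed more. With library totals they were 54 in place of 33 (AZD5363+MK1775+anti-PD-1 against control), 27 in place of 17 (KS100), 31 in place of 18 (KS100+anti-PD-1), 15 in place of 9 (AZD5363+MK1775+anti-PD-1 against AZD5363+MK1775) and 43 in place of 26 (against anti-PD-1). With nuclear protein-coding totals they were 4 (3 lower and Atp5k higher) in place of 11 lower for AZD5363+MK1775 and 2 in place of 4 for KS100+anti-PD-1 against KS100, where DESeq2 size factors also gave 2. A minimum of 50 counts left 2 of 9 for AZD5363+MK1775+anti-PD-1 against AZD5363+MK1775 and 0 of 4 for KS100+anti-PD-1 against KS100. Of 111 results for single genes under other scalings, 104 kept their side of the rule and 7 lost it. The cause of these changes was not tested.

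In the additive model, edgeR with library totals called 5 subunits for KS100 and the DESeq2 Wald test 3, in place of 1. Leaving out 1 pool at a time gave 0 to 3 calls for KS100 (0 without control, anti-PD-1, KS100 or KS100+anti-PD-1, and 3 without AZD5363+MK1775+anti-PD-1) and 0 to 1 for AZD5363+MK1775, where Ndufa10 passed without the AZD5363+MK1775 pool (edgeR adjusted p of 0.0289). These fits assume that a lone pool varies like the others. No paired analysis was possible because each treatment has 1 pool, so the shared number pairs nothing. Depth limits the inhibitor pools: with 116 subunit counts in the KS100+anti-PD-1 pool, most single genes there have intervals too wide to pass the rule.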
